A study of Mus musculus with 12 samples.

Results

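The genes described here are 36 lysosomal genes of the mouse: 6 for structural and membrane proteins, 10 for proteases, 9 for glycosidases, 3 for sulfatases, 6 for lipid degradation and 2 for regulators of the lysosome. They were picked by gene symbol, and all 36 were found among the 56748 entries of the scaled count table and the 55372 genes of the TPM table. The animals were Abca4 knockout (Abca4Ko) mice and control littermates aged 2 months, and RNA-seq libraries were made of 2 fractions of their retinas, with 3 libraries in each of 4 groups. Control mice carried RiboTag and i75-Rod-Cre, and Abca4Ko mice carried RiboTag, Abca4-/- and i75-Rod-Cre, so that the tagged ribosomal protein and the Cre were shared by all groups. RiboTag adds an epitope to a ribosomal protein in cells with active Cre, and i75-Rod-Cre is driven by the rhodopsin promoter, whereas the Abca4 deletion was carried by every cell of the Abca4Ko animals. The rod TRAP libraries (translating ribosome affinity purification) hold the messages pulled down with the tagged ribosomes of rods and were made from 10 ng of RNA. The retina libraries hold the messages of the whole-retina lysate and were made from 5 ng. Ribosomes were held on their messages by cycloheximide perfusion.

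Lysosomes are acidic organelles in which hydrolases take apart proteins, glycans and lipids delivered by endocytosis and autophagy. Their membrane is lined with heavily glycosylated proteins such as LAMP1 and LAMP2, and many of their genes can be switched on together by the transcription factor TFEB, which binds an E-box motif in their promoters. In the eye, lysosomal digestion is best known from the retinal pigment epithelium (RPE), which takes up shed photoreceptor outer segments, and from microglia. ABCA4 is the outer segment flippase whose loss lets bisretinoids, the main components of lipofuscin, build up in RPE lysosomes.

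The scaled counts had a common total within each fraction, and the spacing of low values put the reads behind them at 16200000 to 18200000 in rod TRAP and 14800000 to 23200000 in retina. The factor fitted for control retina replicate 3 was too near 1 for the spacing to give its depth independently. Abca4, the deleted gene, was at 195, 365 and 13156 scaled counts in Abca4Ko rod TRAP against 61017, 53193 and 53533 in control. In retina it was at 153, 366 and 8124 against 38929, 37619 and 38090. The libraries labelled Abca4Ko replicate 3 thus held 23.5% of the control mean in rod TRAP and 21.3% in retina, and stood apart from the other Abca4Ko libraries. All 18 rod markers were higher in rod TRAP than in retina in both genotypes, with a median log2 fold change of 1.26 in control. The 14 Müller glia markers were all lower, with a median of -4.31. The median was -2.47 over 14 microglia markers and -3.33 over 12 RPE markers.

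The comparison of rod TRAP with retina asks which lysosomal messages were on rod ribosomes. The set did not move as a group. In control mice 10 members were higher in rod TRAP and 15 were lower (limma adjusted p under 0.05), of 36 tested, where 75.3% of all 16286 genes tested were called, 36% higher and 39.3% lower. In Abca4Ko mice 10 members were higher and 14 lower, where 63.8% of 16036 genes were called, 29.4% higher and 34.4% lower. The share of members called was thus near that of all genes. On the log2(CPM + 0.5) scale the fractions did not overlap for 11 higher and 15 lower members in each genotype, where 79.5% of all genes did not overlap in control and 69.1% in Abca4Ko. The median log2 fold change of the members was -0.17 in control and -0.10 in Abca4Ko, and that of all genes tested was -0.05 and -0.02. A member called the same way in both genotypes was put in a class. By this rule 8 members were rod-enriched (Lamp1, Lamp2, Ctsa, Ctsb, Ctsf, Tpp1, Gla and Asah1), 13 were rod-depleted (Cd63, Ctsc, Ctsh, Ctss, Gaa, Glb1, Gusb, Idua, Arsa, Arsb, Lipa, Grn and Tfeb) and 15 were neither. Of the rod-depleted members, Ctsc, Ctsh, Ctss, Glb1, Idua and Lipa passed the filter on low values only through the retina libraries. Their calls, classes and p-values by fraction are therefore given as a description. In bulk samples, fewer cells of a type and less RNA per cell cannot be told apart, and the pull-down itself and the RNA input cannot be told apart from the fraction.

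**Figure D1:**
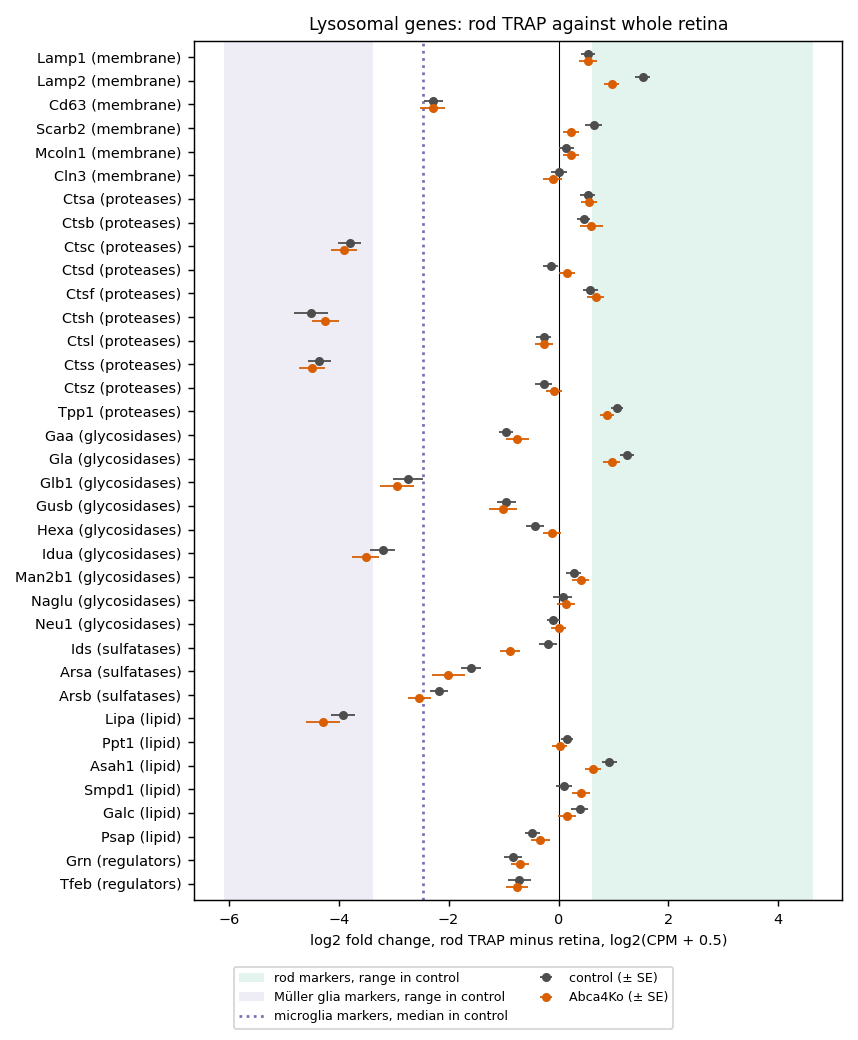
Log2 fold change of each of the 36 members between rod TRAP and retina, on the log2(CPM + 0.5) scale, in control (grey) and Abca4Ko (orange) mice, with bars for the SE of the limma fit. The green band spans the 18 rod markers and the violet band the 14 Müller glia markers in control, and the dotted line is the microglia median of -2.47. Ctsc, Ctsh, Ctss and Lipa lie within the violet band in both genotypes, and Lamp2, Gla, Tpp1 and Asah1 lie within the green band in both.

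The 13 rod-depleted members were called lower in both genotypes under each of 4 alternatives, namely the authors' scaling alone, median-of-ratios scaling, log2(TPM + 1) and a replicate block. Of the 8 rod-enriched members, Tpp1 and Gla were called higher in both genotypes under all 4. With the authors' scaling alone, which moved the median of all genes from -0.05 to -0.62 in control, 2 members were rod-enriched, 22 rod-depleted and 12 neither. On log2(TPM + 1) 4 members were rod-enriched and 14 rod-depleted. Directions between the fractions are therefore relative to the typical gene of the fit. The authors' scaling and median-of-ratios scaling lowered the value of all 36 members in both genotypes, log2(TPM + 1) lowered it for 30 in control and 28 in Abca4Ko, and the block left it as it was, so these alternatives could take members from the rod-enriched class far more readily than from the rod-depleted class, and the classes cannot be ranked by them. Single libraries also decided some calls of the rod-enriched class, of which Ctsf was not followed with a library left out. Lamp1, Ctsb and Ctsa were not called in control without control retina replicate 1 or 2. In Abca4Ko, Lamp1 was not called without rod TRAP replicate 1 or retina replicate 2 or 3, Ctsb without rod TRAP replicate 1 or any retina replicate, Ctsa without retina replicate 1 or 3, and Asah1 without retina replicate 2. Without the libraries labelled replicate 3 in both fractions, 3 members were higher and 8 lower in Abca4Ko of 30 tested, since genes present in retina alone then lack the 3 libraries that the filter on low values asks for.

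The 250 bases before and 50 bases after the annotated start were held for 33 of the 36 members (RefSeq, GRCm38.p6), and not for Ctsb, Ctsh and Asah1. The 6-base E-box core CACGTG, which reads the same on both strands, was found in 12 of these 33 members (36.4%) and in 8.09% of 27025 genes with such a window. The 8-base form TCACGTGA, which contains the core, was found in 5 members (15.2%; Mcoln1, Cln3, Ctsa, Ctsd and Gla) against 1.12% of genes. By class, the core was present in 4 of 6 rod-enriched, 3 of 12 rod-depleted and 5 of 15 other members with a window. Matches describe these windows only and show no binding. The stretches that hold the motif are printed for the 4 rod-enriched members, so that they can be set beside the 3 rod-depleted members and the lysosomal channel and membrane genes Mcoln1 and Cln3, with CACGTG in capitals, 5′ to 3′ on the strand of the gene.
Lamp1: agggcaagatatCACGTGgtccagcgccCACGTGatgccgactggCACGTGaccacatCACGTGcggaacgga
Ctsa: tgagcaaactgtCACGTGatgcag
Ctsf: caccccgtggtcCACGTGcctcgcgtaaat
Gla: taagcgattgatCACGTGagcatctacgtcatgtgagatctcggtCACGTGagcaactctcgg
Gaa: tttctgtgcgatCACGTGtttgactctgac
Glb1: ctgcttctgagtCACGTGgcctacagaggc
Arsa: tcaactcagtgtCACGTGttgtctgctc
Mcoln1: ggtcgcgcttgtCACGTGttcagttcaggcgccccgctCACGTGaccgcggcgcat
Cln3: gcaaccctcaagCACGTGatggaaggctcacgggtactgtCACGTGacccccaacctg
Lamp1 held 4 copies within the 73 bases shown, at chr8:13159088-13159160 on the plus strand, the farthest 61 and the nearest 15 bases before the start. Gla (chrX:134601182-134601244, minus), Mcoln1 (chr8:3500436-3500491, plus) and Cln3 (chr7:126583340-126583397, minus) held 2 copies each. The others shown held 1 copy, in Ctsa at chr2:164833749-164833772 (plus), in Ctsf at chr19:4855074-4855103 (plus), in Gaa at chr11:119267811-119267840 (plus), in Glb1 at chr9:114401018-114401047 (plus) and in Arsa at chr15:89477425-89477452 (minus).

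Of the 6 membrane proteins, 3 were higher in rod TRAP in control, 1 was lower and 2 were not called. Lamp2, whose product lines the lysosome and takes part in chaperone-mediated autophagy, was at 59.3, 52.6 and 53.6 TPM in control rod TRAP and at 30.1, 29.4 and 20.1 TPM in control retina. In Abca4Ko it was at 47.0, 53.7 and 57.0 TPM in rod TRAP and at 24.8, 33.5 and 45.2 TPM in retina. Each rod TRAP library lay above each retina library, and Abca4Ko retina replicate 3 was the highest of the retina libraries. The log2 fold change was 1.53 ± 0.141 (SE, n = 3 and 3, limma adjusted p = 6.35e-07) in control, the largest of the members, and 0.96 ± 0.145 in Abca4Ko (limma adjusted p = 0.000168).

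Lamp1 was the most abundant of the membrane members in both fractions, at 301.7, 307.5 and 324.8 TPM in control rod TRAP and 249.6, 261.6 and 283.7 TPM in control retina. In Abca4Ko it was at 295.2, 289.5 and 281.1 TPM in rod TRAP and 217.5, 249.6 and 230.3 TPM in retina. The fractions did not overlap within either genotype. The log2 fold change was 0.54 ± 0.124 in control (limma adjusted p = 0.00156) and 0.53 ± 0.168 in Abca4Ko (0.0170), and in control it turned to -0.09 with the authors' scaling alone. Scarb2, the receptor that carries β-glucocerebrosidase to lysosomes, was called higher in control (0.64 ± 0.152, limma adjusted p = 0.00197) and not in Abca4Ko (0.23 ± 0.143, 0.190). Its levels were 52.6, 53.4 and 53.0 TPM in control rod TRAP, 41.0, 57.3 and 30.4 TPM in control retina, 38.7, 48.1 and 49.0 TPM in Abca4Ko rod TRAP and 31.6, 49.5 and 57.2 TPM in Abca4Ko retina, so that in TPM the fractions overlapped in both genotypes. Its call in control was lost with the authors' scaling alone (0.02, limma adjusted p = 0.920) and on log2(TPM + 1) (0.34, 0.143), and its value was 0.22 without control retina replicate 3.

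Cd63 was the membrane member that went the other way. It encodes a tetraspanin of late endosomes, lysosomes and exosomes. Levels were 28.0, 21.3 and 24.2 TPM in control rod TRAP against 135.9, 140.3 and 185.7 TPM in control retina, and 24.3, 18.5 and 17.0 TPM in Abca4Ko rod TRAP against 89.3, 142.1 and 120.6 TPM in Abca4Ko retina. The log2 fold change was -2.28 ± 0.174 in control (limma adjusted p = 1.17e-07) and -2.29 ± 0.224 in Abca4Ko (7.13e-06), close to the microglia median. A pseudogene copy, Cd63-ps, was read at 14 to 21 scaled counts across the rod TRAP libraries and at 85 to 231 across the retina libraries, and how reads that match both were split is not known, so the Cd63 level is uncertain to that extent. Mcoln1, a lysosomal calcium channel, and Cln3, mutated in a juvenile form of neuronal ceroid lipofuscinosis, were called in neither genotype.

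**Figure D2:**
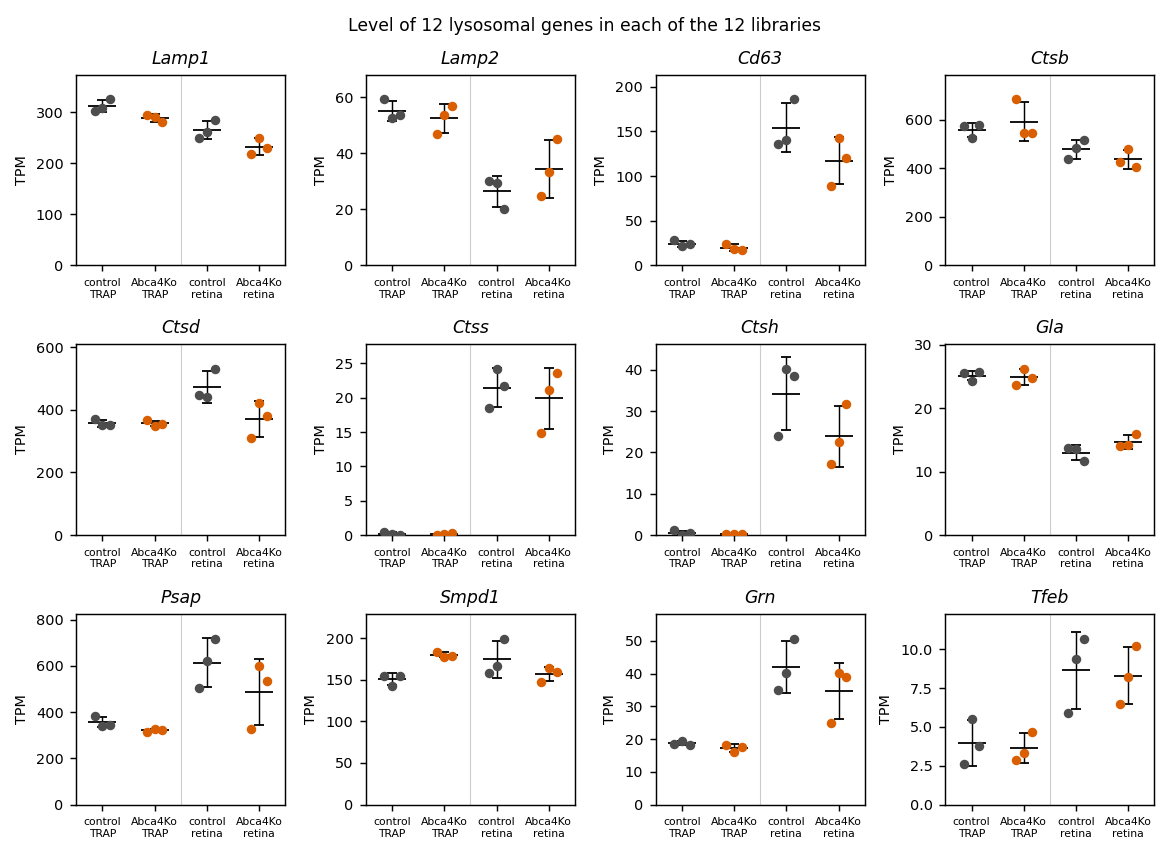
TPM of 12 members in each of the 12 libraries, with a point per library in replicate order, a black dash for the mean and bars for the SD (n = 3 per group). Ctss and Ctsh lie at 1.1 TPM or less in all rod TRAP libraries, while Gla and Lamp2 are higher in rod TRAP than in retina in every library of either genotype.

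The 10 proteases split most widely. In control, 4 were higher in rod TRAP, 3 were lower and 3 were not called, and the same counts were found in Abca4Ko. Ctsb, a cysteine cathepsin, was the most abundant member in rod TRAP. It was at 573.9, 526.0 and 576.5 TPM in control rod TRAP and at 436.5, 483.4 and 515.5 TPM in control retina, and at 683.2, 546.6 and 546.2 TPM in Abca4Ko rod TRAP and 426.5, 479.3 and 404.8 TPM in Abca4Ko retina. The fractions were separate in both genotypes, by a log2 fold change of 0.46 ± 0.124 in control (limma adjusted p = 0.00485) and 0.60 ± 0.205 in Abca4Ko (0.0251), but the control value was -0.17 with the authors' scaling alone.

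Tpp1, the tripeptidyl peptidase that is lost in a late-infantile form of neuronal ceroid lipofuscinosis, was the protease with the largest rise in rod TRAP. It was at 142.1, 121.8 and 126.6 TPM in control rod TRAP against 66.9, 97.5 and 72.0 TPM in control retina, and at 131.5, 135.0 and 128.0 TPM against 67.1, 83.0 and 84.3 TPM in Abca4Ko. No retina library reached the lowest rod TRAP library. The log2 fold change was 1.06 ± 0.109 in control (limma adjusted p = 1.79e-06) and 0.88 ± 0.135 in Abca4Ko (0.000192). Ctsf, a papain-like cathepsin, was higher by 0.58 in control, which turned to -0.047 with the authors' scaling alone, and by 0.68 in Abca4Ko. In control its TPM values overlapped, at 294.4, 254.4 and 263.5 in rod TRAP and 226.9, 227.5 and 254.6 in retina. Ctsa, which protects β-galactosidase and neuraminidase in a lysosomal complex, was higher by 0.53, which turned to -0.094 with that scaling, and by 0.55.

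Ctsd, the aspartic protease that digests much of the rhodopsin taken up by the RPE, was not called in either genotype. It was at 370.3, 349.9 and 350.2 TPM in control rod TRAP and at 445.7, 441.2 and 530.0 TPM in control retina. In Abca4Ko it was at 365.8, 349.4 and 353.9 TPM in rod TRAP and at 309.9, 422.3 and 380.9 TPM in retina. Its log2 fold change was -0.15 ± 0.142 in control (limma adjusted p = 0.368) and 0.15 ± 0.154 in Abca4Ko (0.403). In control it was called lower without retina replicate 2 (-0.51) or retina replicate 3 (-0.24), with the authors' scaling alone (-0.77) and on log2(TPM + 1) (-0.40). Ctsl and Ctsz were not called in either genotype.

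Ctss, Ctsh and Ctsc, cathepsins known from antigen-presenting and other immune cells, were nearly missing from rod TRAP. Ctss was at 4, 2 and 1 scaled counts in control rod TRAP and 0, 1 and 3 in Abca4Ko rod TRAP. In TPM it was at 0.4, 0.2 and 0.0 in control and 0.0, 0.1 and 0.3 in Abca4Ko rod TRAP, and in retina at 18.5, 24.2 and 21.7 in control and 14.9, 21.2 and 23.6 in Abca4Ko. These libraries do not overlap by a wide margin. With the libraries of a group summed, control retina held 872 scaled counts and control rod TRAP 7, a ratio of 119 (95% exact interval 57.6 to 297), where the interval covers counting error only. In Abca4Ko the sums were 814 and 4, a ratio of 195 (75.8 to 717). The fitted log2 fold changes of -4.35 ± 0.203 in control (limma adjusted p = 1.95e-09) and -4.49 ± 0.236 in Abca4Ko (1.48e-07) understate such ratios because of the pseudocount. These fits are a description, since Ctss passed the filter on low values only through the retina libraries.

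Ctsh was at 24.0, 40.2 and 38.4 TPM in control retina and 17.3, 22.6 and 31.7 TPM in Abca4Ko retina, against 1.1, 0.0 and 0.5 TPM in control and 0.3, 0.3 and 0.3 TPM in Abca4Ko rod TRAP. It had the largest fall of the members in control, -4.51 ± 0.305 (limma adjusted p = 3.98e-08), and the ratio of retina to rod TRAP was 74.4 (45.6 to 131). Ctsc was at 6.7, 8.4 and 6.7 TPM in control retina and 4.9, 7.8 and 10.1 TPM in Abca4Ko retina, against 0.2, 0.2 and 0.0 TPM in control rod TRAP and 0.1, 0.2 and 0.1 TPM in Abca4Ko rod TRAP. Its ratio was 66.8 (35.0 to 147) in control, and its log2 fold change was -3.81 ± 0.207 (limma adjusted p = 6.27e-09). All of these ratios rest on fewer than 20 scaled counts in rod TRAP, so their size is known less well than their direction.

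Among the 9 glycosidases, 1 was higher in rod TRAP in control and 5 were lower. Gla, the α-galactosidase A deficient in Fabry disease, was at 25.5, 24.3 and 25.7 TPM in control rod TRAP against 13.8, 13.5 and 11.6 TPM in control retina. In Abca4Ko it was at 23.7, 26.2 and 24.7 TPM against 14.0, 14.2 and 16 TPM. Its levels in rod TRAP were tight and well above retina, with a log2 fold change of 1.25 ± 0.132 in control (limma adjusted p = 2.23e-06) and 0.97 ± 0.155 in Abca4Ko (0.000260).

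Idua, the α-L-iduronidase that degrades glycosaminoglycans, was at 0.1, 0.2 and 0.1 TPM in control rod TRAP and 0.1, 0.0 and 0.0 TPM in Abca4Ko rod TRAP. It was at 3.1, 4.6 and 3.6 TPM in control retina and 2.0, 3.4 and 4.4 TPM in Abca4Ko retina. Its log2 fold change in control was -3.20 ± 0.221 (limma adjusted p = 4.80e-08). Glb1, the acid β-galactosidase, had 42 scaled counts over the control rod TRAP libraries and 634 over the control retina libraries, a ratio of 14.4 (10.6 to 20.2). Gaa, the acid α-glucosidase deficient in Pompe disease, was lower by less, -0.96 ± 0.131 in control (limma adjusted p = 2.43e-05), from 93.4 ± 13.9 TPM in retina to 37.6 ± 0.896 TPM in rod TRAP (SD, n = 3). Gusb, the β-glucuronidase, was at -0.95 in control and -1.01 in Abca4Ko. Hexa, the α subunit of β-hexosaminidase, was called lower in control (-0.44, limma adjusted p = 0.0276) and not in Abca4Ko (-0.12, 0.562), and Man2b1, a lysosomal α-mannosidase, was called higher in Abca4Ko (0.40, 0.0381, but -0.098 with the authors' scaling alone) and not in control (0.27, 0.1). Naglu and Neu1 were called in neither genotype.

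Arsa and Arsb, which remove sulfate from sulfatide and from glycosaminoglycans, were both rod-depleted. Arsa was at 4.1, 2.9 and 2.7 TPM in control rod TRAP and 8.3, 14.2 and 12.2 TPM in control retina, and at 1.1, 3.6 and 1.3 TPM in Abca4Ko rod TRAP and 4.3, 11.8 and 10.4 TPM in Abca4Ko retina. Its log2 fold change was -1.60 ± 0.184 in control (limma adjusted p = 4.89e-06) and -2.01 ± 0.301 in Abca4Ko (0.000164). The log2 fold change of Arsb was -2.18 in control and -2.53 in Abca4Ko. Ids, the iduronate sulfatase, was at 18.2, 15 and 18.7 TPM in control rod TRAP and 23.4, 35.2 and 17.3 TPM in control retina, and was called lower in rod TRAP in Abca4Ko only (-0.89 ± 0.180, limma adjusted p = 0.00131, against -0.19 ± 0.166, 0.322, in control). Without control retina replicate 3 it was also called lower in control (-0.61), and the test of the difference between genotypes, given with the interaction, did not pass.

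The 6 lipid-degrading members ranged from clear enrichment to near absence. Asah1, the acid ceramidase, was at 44.8, 40.7 and 49.4 TPM in control rod TRAP and 23.3, 30.6 and 21.5 TPM in control retina, and at 42.8, 49.6 and 49.6 TPM in Abca4Ko rod TRAP and 28.9, 32.5 and 35.4 TPM in Abca4Ko retina. The groups did not overlap, and the log2 fold change was 0.92 ± 0.136 in control (limma adjusted p = 4.65e-05) and 0.62 ± 0.142 in Abca4Ko (0.00282). Lipa, the acid lipase that frees cholesterol and fatty acids in lysosomes, was at 0.3, 0.3 and 0.5 TPM in control rod TRAP and 9.7, 13.4 and 11.3 TPM in control retina. In Abca4Ko it was at 0.1, 0.2 and 0.0 TPM against 4.6, 11.9 and 12.2 TPM. The retina to rod TRAP ratio was 38.3 (26.5 to 57.4) in control and 83.2 (46.3 to 167) in Abca4Ko, and the log2 fold change in control was -3.93 ± 0.222 (limma adjusted p = 8.70e-09).

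Psap, the precursor of the saposins that present sphingolipids to their hydrolases, was at 381.9, 341.8 and 345.6 TPM in control rod TRAP and 503.9, 621.8 and 718.7 TPM in control retina. In Abca4Ko it was at 313.1, 325.8 and 324.0 TPM in rod TRAP and 326.2, 598.2 and 535.9 TPM in retina. Abca4Ko retina replicate 1 was close to the rod TRAP level and far below the other retina libraries. The log2 fold change was -0.48 ± 0.143 in control (limma adjusted p = 0.00920) and -0.33 ± 0.172 in Abca4Ko (0.115), where it was called lower without retina replicate 1 (-0.66) or retina replicate 3 (-0.54). Galc, the galactosylceramidase, was called higher in control (0.38, limma adjusted p = 0.0433, but -0.22 with the authors' scaling alone) and not in Abca4Ko (0.16, 0.452). Smpd1, the acid sphingomyelinase, was called higher in Abca4Ko (0.41, 0.0453, but -0.10 with that scaling) and not in control (0.10, 0.545), and its call in Abca4Ko was lost whichever library was left out. Ppt1, the palmitoyl-protein thioesterase, was called in neither.

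The 2 regulators were both rod-depleted. Grn encodes progranulin, which is needed for the maturation of lysosomal enzymes. It was at 18.5, 19.5 and 18.3 TPM in control rod TRAP and 35.0, 40.3 and 50.7 TPM in control retina, and at 18.3, 16.1 and 17.5 TPM against 24.8, 40.1 and 38.9 TPM in Abca4Ko. The fractions did not overlap, and the log2 fold change was -0.83 ± 0.164 in control (limma adjusted p = 0.000541) and -0.69 ± 0.163 in Abca4Ko (0.00334). Tfeb was scarce, at 2.6, 5.5 and 3.8 TPM in control rod TRAP and 5.9, 9.4 and 10.7 TPM in control retina, and at 2.9, 3.3 and 4.7 TPM against 6.5, 8.2 and 10.2 TPM in Abca4Ko. It was lower by -0.72 ± 0.209 in control (limma adjusted p = 0.00749) and -0.76 ± 0.198 in Abca4Ko (0.00649).

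Set against the marker genes, 5 members in control (Asah1, Gla, Lamp2, Scarb2 and Tpp1) reached the range of the rod markers, whose lowest value was 0.61, and 3 in Abca4Ko (Gla, Lamp2 and Tpp1), whose lowest rod marker was at 0.75. Without control retina replicate 3, Scarb2 was at 0.22 and Asah1 at 0.59. The bipolar cell markers Prkca (1.55) and Otx2 (1.31) and the cone marker Cngb3 (0.87) were also called higher in control rod TRAP. Genes listed as markers of other cells thus reached the range too. The other 10 bipolar and 11 cone markers were called lower, and whether rods carry Prkca, Otx2 and Cngb3 was not tested. At the other end, Ctsc, Ctsh, Ctss and Lipa fell within the range of the Müller glia markers, whose highest value was -3.37 in control, and with Glb1 and Idua they were at or below the microglia median. The ratio of the fractions does not say which other cells carried these messages, since every list of non-rod markers, Müller glia, microglia, RPE and vascular among them, had a median below 0 in control. The remaining members lay between these ends. Of the defining microglia markers, Itgam and Ptprc were listed at 0 in all rod TRAP libraries.

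In TPM, which compares levels between genes, the order of the members in control rod TRAP began with Ctsb (559 ± 28.4 TPM, SD, n = 3), Ctsd (357 ± 11.7), Psap (356 ± 22.1), Lamp1 (311 ± 12.0) and Ctsf (271 ± 21.0). The libraries of Ctsd and Psap overlapped, and each other neighbour in this run was separate. In control retina the order began with Psap (615 ± 108 TPM), Ctsb (478 ± 39.7), Ctsd (472 ± 50), Lamp1 (265 ± 17.3) and Ctsf (236 ± 15.8), with overlap between Psap and Ctsb, Ctsb and Ctsd, and Lamp1 and Ctsf. The same 5 genes led in both fractions. At the lower end of control rod TRAP, Glb1, Ctsh, Lipa, Ctss, Ctsc and Idua all had means under 1 TPM and their libraries overlapped.

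The members summed to 2889 to 3112 TPM in control rod TRAP and 2883 to 2950 TPM in Abca4Ko rod TRAP. They summed to 3233 to 3878 TPM in control retina, and to 2439, 3481 and 3224 TPM in Abca4Ko retina replicates 1, 2 and 3. The 8 rod-enriched members made up 50.8% ± 0.772 of the member TPM in control rod TRAP and 34.9% ± 1.1 in control retina (SD, n = 3). The 13 rod-depleted members made up 3.21% ± 0.102 and 11.9% ± 0.807. These shares follow from how the classes were chosen and are given as a description. Most of the member TPM in retina came from the 15 members in neither class, at 53.2% ± 0.685.

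**Figure D3:**
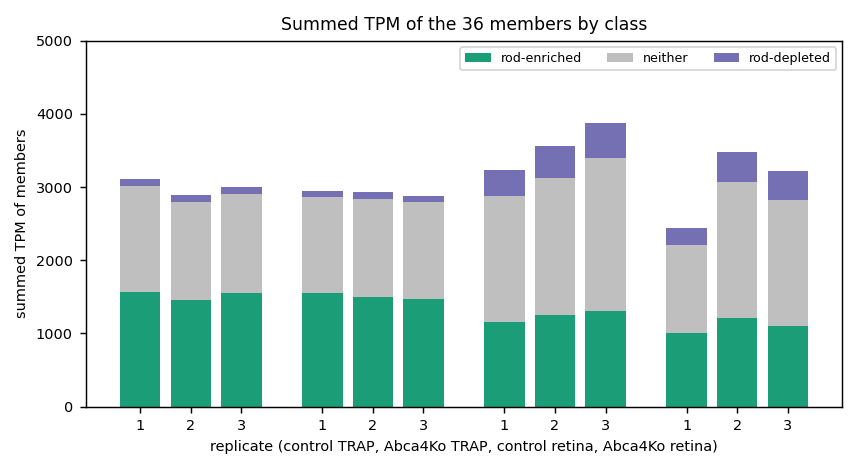
Summed TPM of the 36 members in each library, stacked by class (green rod-enriched, grey neither, violet rod-depleted), with replicates 1 to 3 of each group side by side. The rod TRAP libraries lie between 2883 and 3112 TPM, and Abca4Ko retina replicate 1, at 2439 TPM, is the lowest of all 12.

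5 other lists of lysosomal genes were read the same way. The percent called of all genes in control (75.3%) applies to each. Genes low in rod TRAP, such as Laptm5 (0.1, 0 and 0.1 TPM in control), could pass the filter on low values through the retina libraries alone. Calls of such genes as lower, and the counts that hold them, are therefore given as a description. Of 29 other hydrolases tested, 7 were higher in rod TRAP and 11 lower, with a median of -0.24 and extremes in Naaa, an acid amidase (0.98), and Hyal1, a hyaluronidase (-2.32). Hyal1 was at 6, 1 and 0 scaled counts in control rod TRAP and 54, 75 and 54 in control retina. It passed the filter only through the retina libraries. Of 27 other membrane and transport proteins, 8 were higher and 13 lower, with a median of -0.31. Mfsd8, mutated in another neuronal ceroid lipofuscinosis, was the highest at 2.08 and Lamp5, a LAMP family member of neurons, the lowest at -4.92. Of 18 subunits and accessory proteins of the V-ATPase, the proton pump that acidifies lysosomes, 4 were higher and 6 lower with a median of -0.15, from Atp6v1g2 (-3.62) to Atp6ap2 (1.58).

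The lists for delivery and control lay higher. Of 12 genes for sorting enzymes to lysosomes, 7 were higher and 3 lower, with a median of 0.54, from Gga2 (-1.66) to the retromer subunit Vps35 (2.28). Vps35 was at 85.0, 83.4 and 77.8 TPM in control rod TRAP and 23.7, 27.7 and 13.4 TPM in control retina. Of 14 genes for the TFEB relatives and their control by mTORC1 and folliculin, 7 were higher and 1 was lower, with a median of 0.29, from Lamtor1 (-0.78) to the folliculin partner Fnip1 (3.19). Fnip1 was at 30.6, 31.8 and 30.3 TPM in control rod TRAP and 4.2, 5.4 and 2.7 TPM in control retina. In Abca4Ko the medians of the 5 lists were -0.07, -0.33, -0.07, 0.36 and 0.29 in the same order.

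**Figure D4:**
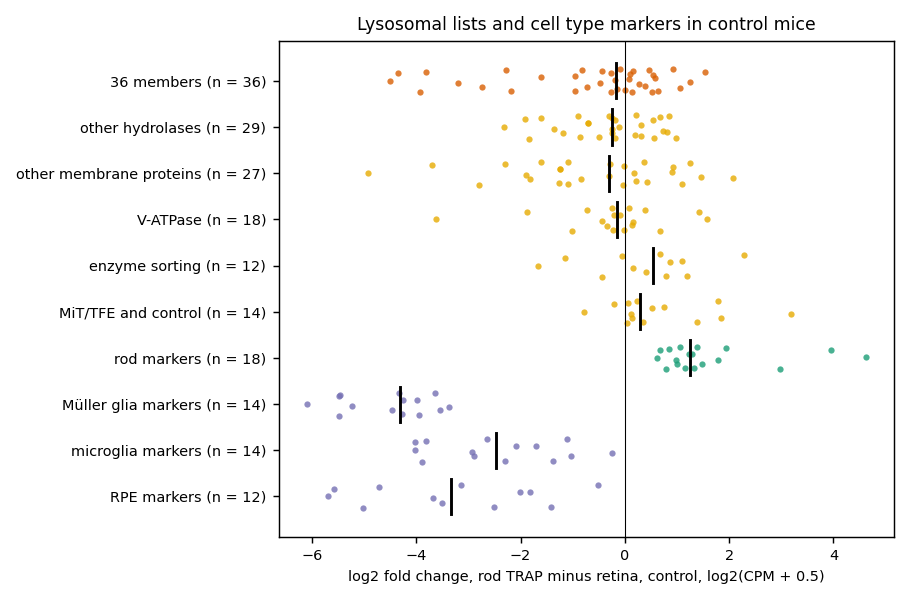
Log2 fold change between rod TRAP and retina in control mice for each gene of the 36 members (orange), of 5 other lysosomal lists (yellow), of the rod markers (green) and of the Müller glia, microglia and RPE markers (violet), on the log2(CPM + 0.5) scale, with a black bar at each list's median. The members spread from -4.51 to 1.53, while the rod markers all lie above 0.61 and the Müller glia markers all below -3.37.

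The comparison of Abca4Ko with control asks whether lysosomal messages change when the flippase is lost. No member passed the test in rod TRAP, where 30 of the 36 could be tested and 1.12% of 13104 genes were called (0.725% higher and 0.397% lower). No member passed in retina, where all 36 were tested and 0.112% of 16964 genes were called (0.0943% higher and 0.0177% lower). Ctsc, Ctsh, Ctss, Glb1, Idua and Lipa were too low in rod TRAP to be tested there. At an unadjusted p under 0.05, 4 of 30 members differed in rod TRAP (10.4% of all genes) and 1 of 36 in retina (11.9% of all genes). No member was called in retina under any of the alternatives run. Without the library labelled Abca4Ko replicate 3, no member was called in either fraction. In rod TRAP the only member called under an alternative was Cd63, lower by -0.53 ± 0.146 (limma adjusted p = 0.0381) without Abca4Ko rod TRAP replicate 1. In that fit 598 of all genes tested were called, against 147 with all libraries. With all libraries Cd63 was lower by -0.26 ± 0.215 (limma adjusted p = 0.736).

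In rod TRAP the groups of 1 member did not overlap with Abca4Ko higher, and those of 5 members with Abca4Ko lower, of 30 on the log2(CPM + 0.5) scale, where 17.5% of all genes did not overlap. In TPM 1 member was separate with Abca4Ko higher and 8 with Abca4Ko lower, where 14.3% of 11701 genes did not overlap. The higher member on both scales was Smpd1, at 183.4, 177.5 and 179.1 TPM in Abca4Ko and 155.2, 142.6 and 154.3 TPM in control. Its log2 fold change was 0.32 ± 0.101 (limma adjusted p = 0.247). In retina Smpd1 was at 147.4, 164.7 and 159.5 TPM in Abca4Ko and 157.9, 166.7 and 199.8 TPM in control, and these groups overlapped. The 5 lower members on the CPM scale were Scarb2, Ctsa, Arsa, Arsb and Ppt1, and the 8 in TPM were Arsb, Cln3, Ctsa, Lamp1, Naglu, Ppt1, Psap and Scarb2. Arsa was lower by -0.71 ± 0.207 (limma adjusted p = 0.201), and its TPM values overlapped. Ctsa was at 95, 112.3 and 109.3 TPM in Abca4Ko and 127.6, 126.8 and 129.3 TPM in control rod TRAP, with a log2 fold change of -0.18 ± 0.0755 (0.429). Scarb2 was lower by -0.17 ± 0.0743 (0.466). None of these differences passed the correction over all genes tested, under any alternative run.

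The median log2 fold change of the members in rod TRAP was -0.05 (all genes 0.00), and 21 of 30 were below 0, or 70.0% against 49.5% of all genes. In the same libraries the 12 cone markers had a median of 0.40, with 2 called higher, and summed to 680.5 to 896.9 TPM in Abca4Ko against 611.2 to 712.0 TPM in control. The Müller glia list had a median of 0.26, with 2 of 12 below 0, and summed to 147.6 to 207 TPM against 151.3 to 178.2 TPM. The lens list had a median of 1.01, with 0 of 9 below 0, and summed to 8.1 to 315.7 TPM against 7 to 247.4 TPM. The 18 rod markers had a median of 0.06. Other lists had medians below 0, namely amacrine (-0.20, 7 of 9 below 0), ganglion (-0.15, 6 of 10) and bipolar (-0.12, 6 of 10). So did RPE (-0.21, 4 of 6), blood (-0.10, 3 of 4), vascular (-0.04, 2 of 4) and horizontal cell markers (-0.02, 2 of 3). The astrocyte and microglia lists had 1 marker tested each and are left out. The part of any of these messages in the member values was not tested.

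**Figure D5:**
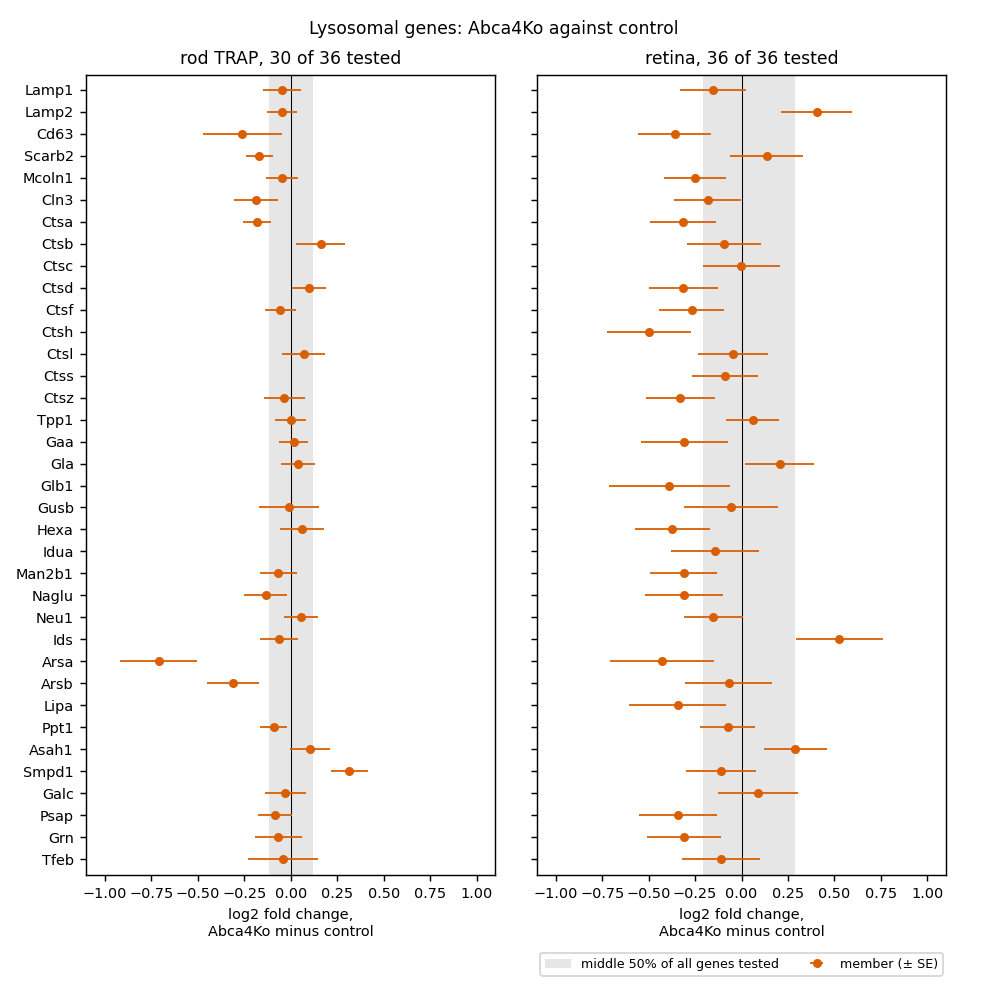
Log2 fold change of each member between Abca4Ko and control in rod TRAP (left, 30 of 36 members tested) and in retina (right, all 36), on the log2(CPM + 0.5) scale, with bars for the SE of the limma fit and a grey band for the middle 50% of all genes tested. No member was called in either panel, and 29 of 36 members lie below 0 in retina.

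In retina 29 of 36 members were lower in Abca4Ko than in control, or 80.6% against 51.3% of all genes tested, with a median of -0.15 (all genes -0.01). On the log2(CPM + 0.5) scale no member's groups were separate, where 19.7% of all genes did not overlap. In TPM, Gla was separate with Abca4Ko higher and Ctsa, Ctsd and Ctsf with Abca4Ko lower, where 11.7% of 15013 genes did not overlap. Ids, the member with the smallest p, went the other way, at 26.4, 30.5 and 55.3 TPM in Abca4Ko and 23.4, 35.2 and 17.3 TPM in control (log2 fold change 0.53 ± 0.233, limma adjusted p = 0.418). Its highest value was in Abca4Ko replicate 3 and its lowest in control replicate 3, and the change was 0.31 without the former and 0.35 without the latter.

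Abca4Ko retina replicate 1 had the lowest TPM of the 6 retina libraries for 28 of the 36 members. Its marker sums were also the lowest of the 6 for Müller glia (3562 TPM), bipolar (1106), amacrine (725.3), ganglion (736.5), horizontal (64.9) and astrocyte (52.7) lists. Its rod marker sum of 136458 TPM was above those of Abca4Ko retina replicates 2 (116065) and 3 (102720). Leaving out Abca4Ko retina replicate 1 moved the median of the members from -0.15 to -0.09. Leaving out control retina replicate 3 moved it to -0.06, and leaving out Abca4Ko retina replicate 2 moved it to -0.26. Marker lists of cell types were read in the same comparison, and no marker of any list was called. Medians were -0.05 for rod, 0.01 for Müller glia, -0.04 for bipolar, -0.09 for ganglion and 0.08 for amacrine markers. They were -0.04 for astrocyte and -0.23 for horizontal cell markers. The cone list had a median of -0.29, with 10 of 12 below 0, and its sums of 1637 to 2370 TPM in Abca4Ko lay below those of 2422 to 2715 TPM in control. The vascular list had a median of -0.34, with 8 of 13 below 0, and summed to 40 to 123.3 TPM against 57.1 to 104.1 TPM. The microglia list had a median of -0.43, with 12 of 14 markers below 0, and summed to 78.4 to 128.5 TPM in Abca4Ko against 130.5 to 168.6 TPM in control. The RPE list had a median of -0.72, with 12 of 12 below 0, and summed to 102.9 to 454.5 TPM against 323.3 to 771.3 TPM. The blood list had a median of -0.92 and summed to 382.9 to 602.8 TPM against 541.0 to 1235 TPM. The lens list had a median of 0.92 and ranged from 125.3 to 16530 TPM in Abca4Ko and from 196.1 to 34306 TPM in control. The part of these cells in the member values was not tested.

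The interaction tested whether the genotype difference was the same in rod TRAP and in retina. No member passed, where 0.00579% of 17273 genes were called, and 2 of 36 had an unadjusted p under 0.05, where 11.3% of all genes did. They were Ids (-0.60 ± 0.263, limma adjusted p = 0.429) and Lamp2 (-0.46 ± 0.202, 0.429). For both, the Abca4Ko minus control difference was positive in retina (0.53 and 0.40) and near 0 in rod TRAP (-0.06 and -0.05).

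Of the other lysosomal lists, 1 gene was past the threshold between genotypes, and it passed the filter on low values only through the Abca4Ko libraries, so it is given as a description. Hyal1 was at 6, 1 and 0 scaled counts in control rod TRAP and 21, 22 and 20 in Abca4Ko rod TRAP (log2 fold change 1.49, limma adjusted p = 0.0203, and 0.60 on log2(CPM + 2)). In retina it was at 54, 75 and 54 in control and 46, 96 and 100 in Abca4Ko (0.31 ± 0.267, 0.606). The call was lost on log2(TPM + 1) (0.107), without control rod TRAP replicate 2 (0.133) and without control rod TRAP replicate 3 (0.119), and the gene fell below the filter when any Abca4Ko rod TRAP library was left out. Hyal1 also shares 50.8% of its annotated exon bases with Naa80 on the same strand, at 133 to 149 scaled counts in Abca4Ko and 122 to 153 in control rod TRAP, so that how reads were split between these genes is uncertain. The V-ATPase, enzyme sorting, membrane and TFEB relative lists held no gene called between genotypes in either fraction.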

How the data were processed

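The members and the gene lists were chosen with earlier results of these data known. Labels gave each library its group and number, and the p-values measure the spread between libraries, which nothing in the labels ties to separate animals. The authors deposited a table of whole-number scores, called scaled counts here. From the common total per fraction and the spacing of low values, each library's reads were inferred to have been multiplied by 1 factor. How the scores were made is not stated in the sources used here. The authors also deposited TPM per gene, to 1 decimal. The submitters' processing notes list CASAVA 1.8.2, HISAT2, DESeq2, edgeR and GRCm39, with no role given. The strand setting is not given in the sources used here. In GENCODE M21 (GRCm38), 15 members share exon bases with another gene, most of all Ctsd (34.4%, with Gm49369), Arsb (32.3%, with Gm26527) and Ctsl (26.8%, with Gm47123), so their levels are uncertain.

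Since scores are not raw counts, no count model was used. Library sizes were set with TMM scaling (M values trimmed by 0.3, A values by 0.05) and values tested as log2(CPM + 0.5) with limma 3.58.1 (trend, robust) in R 4.3.3, two-sided, for genes with at least 10 scaled counts in at least 3 libraries of the fit, with Benjamini-Hochberg adjustment over all genes tested and a threshold of 0.05. These fold changes understate those of low genes. The fits were checked on simulated data. Depth was estimated by fitting the factor that best accounts for which low whole numbers occur in a library. Ratios of summed counts carry exact binomial intervals (95%). No column of another series was present, and no pair of libraries was a duplicate.

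All 36 members are accounted for. Results that turn on 1 marker gene are not reported here. Values per library are given for Lamp1, Lamp2, Cd63, Ctsd, Ctsb, Ctss, Psap, Grn, Tfeb, the 5 largest rises and 5 largest falls by fraction in control, and members with an unadjusted p under 0.05 between genotypes or in the interaction. Rod TRAP and retina libraries of 1 number deviated together over 11738 genes (r 0.552, 0.197 and 0.518 in Abca4Ko, 0.143, 0.146 and 0.160 in control). However, Abca4Ko rod TRAP replicate 2 deviated more with retina replicate 3 (0.288) than with retina replicate 2. The numbers may thus pair the fractions, but this is not established, and only the replicate block used it. The genotypes are not paired. Alternatives were the authors' scaling, median-of-ratios scaling, no filter, log2(CPM + 2), log2(TPM + 1), all 12 libraries in a joint fit, a replicate block and leaving out each library. Python 3.11.15, numpy 2.4.6, scipy 1.17.1, pandas 2.3.3 and matplotlib 3.10.9 were used.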

Additional observations from a re-analysis of the deposited data

How the results depend on the processing

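The replicate block left the counts of members called as they were, in both fractions, both genotypes and the interaction. Between genotypes the block joined libraries by number alone, and since the genotypes are not paired it is no check there. The block moved the count of all genes called in retina between genotypes from 19 to 33. That count was 12 with the authors' scaling, 33 with no filter, 38 on log2(TPM + 1) and 63 in the joint fit. With a library left out it was 1 to 16, namely 1, 4 and 16 without Abca4Ko replicates 1, 2 and 3. Without control replicates 1, 2 and 3 it was 10, 12 and 4. In rod TRAP the count of all genes was 147, and 58 on log2(TPM + 1), 96 in the joint fit and 28 to 598 with a library left out (36, 28 and 33 without control replicates 1, 2 and 3, and 598 without Abca4Ko replicate 1). Members called there were 0 to 1, with 0 to 1 lower. In the interaction 3 genes were called on log2(TPM + 1) against 1.

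Between fractions, members called higher and lower were 3 and 26 in control and 2 and 22 in Abca4Ko with the authors' scaling, and 4 were higher in control on log2(TPM + 1). Leaving out a library gave 5 to 9 members higher in control (6 and 5 without retina replicates 1 and 2). In Abca4Ko it gave 11 to 22 members called, 3 to 8 higher and 8 to 14 lower, and 5566 to 9786 of all genes. The lowest were without replicate 3 in both fractions, and members called were 13 without Abca4Ko retina replicate 2 (6096 of all genes) and 14 without Abca4Ko retina replicate 3. Without a retina library, low members could not be tested, which by construction can lower the counts of members lower. The cause of the fall in members higher was not tested.

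With the authors' scaling the sign turned for 11 members in control, 5 of them called (Lamp1 at -0.085, Ctsb at -0.17, Ctsa at -0.094, Ctsf at -0.047 and Galc at -0.22), and for 9 in Abca4Ko, 2 of them called (Smpd1 at -0.10 and Man2b1 at -0.098). Others were Smpd1 in control (-0.53) and Ctsd (-0.35) and Scarb2 (-0.28) in Abca4Ko. On log2(TPM + 1) it turned for 5 members in each genotype, none of them called, among them Smpd1 in control (-0.21) and Ctsd in Abca4Ko (-0.047), and with median-of-ratios scaling for 2 in each, none called. With a library left out, Smpd1 in control ranged from -0.25 to 0.15, and in Abca4Ko Ctsd ranged from -0.13 to 0.20 and Scarb2 from -0.086 to 0.27. Without replicate 3 in both fractions Ctsd was at -0.11. Beyond the shift in the median of all genes, the cause was not tested. The 6 members under 1 TPM in rod TRAP were too low to test between genotypes there.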
